A study of Mus musculus with 69 samples.

Results

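The genes described here are 34 genes that oocytes use, taken by their symbols from the 55964 gene IDs of the series. The rule goes by symbol and function and uses no value of these libraries. The members were, however, chosen with earlier results of these data known. They fall into 9 roles. The egg coat and secreted proteins are Zp1, Zp2, Zp3, Oosp1 and Oosp2, and the growth factors are Gdf9 and Bmp15. Components of the subcortical maternal complex are Nlrp5, Ooep, Padi6, Tle6 and Khdc3, and other members of the NLRP family are Nlrp2, Nlrp4f, Nlrp9b and Nlrp14. The transcription regulators are Nobox, Figla, Sohlh1 and Lhx8. Proteins that bind or process germ cell RNA are Dazl, Ddx4, Ybx2, Cpeb1, Pabpc1l, Zar1, Zar1l and Btg4. The meiotic kinases are Mos and Wee2, the chromatin proteins are Dppa3 and Npm2, and Bcl2l10 and Tcl1 act in cell survival and signalling. The question asked of them was whether oocyte RNA in the ovary differed between mice with the normal and the edited Zeb1 gene.

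RNA sequencing counts were available for 69 libraries of pituitary, hypothalamus and ovary, in 18 groups, and 24 of the libraries are from ovary, 4 in each group. All mice were C57BL/6J females collected in proestrus, the stage of the cycle just before ovulation. WT mice have an unedited Zeb1 gene. Point mutations that destroy the binding sites of miR-200a and miR-200b, microRNAs that lower ZEB1, a repressor of transcription, were placed in the 3′ UTR of 1 Zeb1 allele in Zeb1_200H mice and of both alleles in Zeb1_200M mice. The knock-in was present in every cell from conception, so the ovary, the pituitary and the hypothalamus of these mice all carried it. The young cohort were virgins aged 8 to 12 weeks, and the older cohort were aged 28 to 36 weeks and had been through a breeding trial with WT males. In that trial, per the study, most Zeb1_200M females produced no litters, and those that did had fewer than WT or Zeb1_200H females. Genotype and pregnancy history therefore cannot be told apart in older comparisons of Zeb1_200M with WT or Zeb1_200H. The litters of each sequenced mouse are not in the labels used here. Each cohort was bred from lines of both embryonic stem cell clones, and which clone a library came from is not in the labels used here. Replicates of a group came from different mice, per the study's methods, so the p-values measure the spread between mice as well as the technical spread. Replicate numbers do not say which libraries of different tissues shared a mouse.

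A mouse ovary holds oocytes at many stages, each enclosed in a follicle of granulosa cells. A growing oocyte builds an egg coat of zona pellucida glycoproteins, signals to its granulosa cells through GDF9 and BMP15, and stores maternal RNAs and proteins for the first embryonic divisions, when the genome is silent. NOBOX, FIGLA, SOHLH1 and LHX8 switch on much of this program in the primordial and growing follicle. FIGLA and SOHLH1 are basic helix-loop-helix proteins, a class that binds E-boxes, and the ZEB1 protein is also known for binding an E-box of the type CAGGTG. In a whole ovary, a change in the number of oocytes and a change in the RNA of each oocyte cannot be told apart. Per the study, ovaries of young Zeb1_200M mice were smaller than WT ovaries. Their sections held more mature follicles and fewer corpora lutea per area. The part of these differences in the oocyte values was not tested.

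Because E-box letters link these regulators, the promoters of the oocyte genes were read first. The promoter table, from RefSeq on GRCm38.p6, held windows of 300 bases for 26 of the 34 genes. The search covered both strands for CANNTG, for CACGTG and for CAGGTG, which reads CACCTG on the other strand, and both of the latter are also cases of the first. The general form CANNTG was present in the windows of 24 of 26 oocyte genes (92.3%) and in 75.0% of 27025 genes. CACGTG was present in 5 of 26 (19.2%) and in 8.09% of genes. CAGGTG or its complement was present in 14 of 26 (53.8%) and in 22.6% of genes. The genes with CACGTG were Cpeb1, Ddx4, Sohlh1, Tle6 and Zp3. Those with CAGGTG or CACCTG were Btg4, Cpeb1, Figla, Khdc3, Nlrp9b, Nobox, Oosp1, Pabpc1l, Padi6, Sohlh1, Tcl1, Ybx2, Zar1 and Zp3. These are matches of letters and not measured binding sites.

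The sites below are those of the egg coat gene Zp3, which holds both motifs, and of genes whose levels are given in every library further on. Each is printed 5′ to 3′ on the strand of its gene, with the E-box in capitals and its distance before the RefSeq start of the transcript. The first stretch of Zp3 lies at chr5:135979912-135979941 on the plus strand, and its E-box begins 181 bases before the start.
Zp3 distal: ttgaataggaatCACGTGgagtgtctttac
The second stretch of Zp3 lies at chr5:135980038-135980067 on the same strand, with the E-box 55 bases before the start.
Zp3 proximal: gcagagggaattCAGGTGggagggtgggcc
The stretch of Padi6 lies at chr4:140742704-140742733 on the minus strand, with the E-box 78 bases before the start.
Padi6: ctcctccaggctCACCTGtgaacccttaac
The stretch of Btg4 lies at chr9:51115919-51115948 on the plus strand, with the E-box 70 bases before the start.
Btg4: tctagtggatagCACCTGtgtggggtgagc
The stretch of Oosp1 lies at chr19:11691093-11691122 on the minus strand, with the E-box 59 bases before the start and another CACCTG 249 bases before it.
Oosp1: cttagttactccCACCTGcaggtcatctgc
The stretch of Tcl1 lies at chr12:105222741-105222770 on the minus strand, with the E-box 21 bases before the start.
Tcl1: ggcacaggcccaCACCTGgtagtgataaat
The stretch of Cpeb1 lies at chr7:81454804-81454833 on the minus strand, with the E-box 63 bases before the start.
Cpeb1: gcggggccgacaCAGGTGctcctcgtcagg
Nobox holds the motif in stretches at chr6:43309674-43309703 and chr6:43309587-43309616, both on the minus strand, with E-boxes 137 and 50 bases before the start.
Nobox distal: cagcccccacccCAGGTGtgcggtgcctcg
Nobox proximal: gcagactccacaCACCTGgccaccccacgg

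A library of young ovary held 6337205 to 12896366 counts in total, and a library of older ovary 7985206 to 14655095. The 34 oocyte genes together took 3363 to 7963 counts per library in the young cohort, 0.0475% to 0.0903% of all counts. In the older cohort they took 5571 to 12094 counts, 0.0447% to 0.105%. Levels are given as counts per 1000000 counts (CPM), after scaling of library sizes by TMM, a method that balances the bulk of genes between libraries. Zeb1 itself was at 185.0 to 228.0 CPM in young WT ovaries and at 173.0 to 203.0 CPM in young Zeb1_200M ovaries. In older ovaries the ranges were 72.3 to 104.0 CPM and 60.0 to 87.3 CPM. The log2 ratio of Zeb1 in Zeb1_200M to WT, meaning the log2 fold change fitted by edgeR, was −0.06 (SE 0.06, adjusted p = 0.722) for young ovary. For older ovary it was −0.22 (SE 0.16, adjusted p = 0.515), so Zeb1 RNA, in either cohort, was not shown to differ in this tissue. The markers of ovary were present in all 24 libraries, with a summed level of 1738 to 5401 CPM for 10 granulosa genes in young libraries and 1835 to 7836 CPM in older ones. Among older ovaries WT replicate 4 was low and Zeb1_200H replicate 2 and Zeb1_200M replicate 2 were high for most of the oocyte genes, and the last of these, the most uneven, is described with its own values further on.

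In WT ovaries the oocyte genes spanned a wide range of levels, which can be compared between genes only per length of exon. Per kilobase of exon (GENCODE M21), Bmp15 was highest in the young cohort at 29.6 ± 6.29 CPM (SD, n = 4), close to Zp3 at 28.8 ± 5.64, Padi6 at 24.3 ± 4.34, Zp2 at 22.5 ± 4.43 and Gdf9 at 22.1 ± 4.77. These neighbours in the order did not differ beyond their spread. Among older ovaries Padi6 was highest at 35.02 ± 9.23 CPM per kilobase, followed by Gdf9 at 32.6 ± 9.55, Zp3 at 28.5 ± 7.49, Tle6 at 26.9 ± 3.52 and Zp2 at 21.7 ± 6.63, again with overlapping errors. The lowest genes were the regulators Sohlh1 and Figla. Sohlh1 was at 0.378 CPM per kilobase in young and 0.628 in older WT ovaries, and Figla at 0.495 and 0.530. The 5 genes of highest CPM carried 49.6% of the summed WT level of young and 49.2% of that of older ovaries. They were Bmp15, Padi6, Zp2, Nlrp14 and Gdf9 in the young, and Padi6, Nlrp14, Gdf9, Tle6 and Zp2 in the older cohort.

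**Figure D1:**
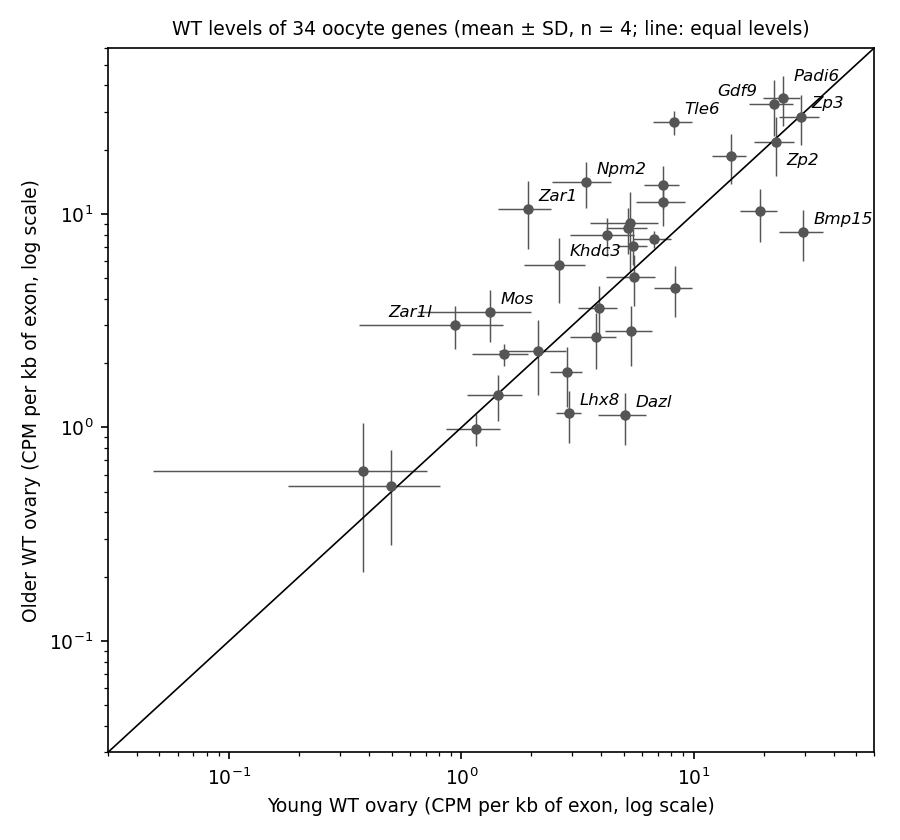
Mean level of each of 34 oocyte genes in young (horizontal) and older (vertical) WT ovaries in CPM per kilobase of exon, both axes on a log scale, with SD over 4 libraries and a line of equal levels. Zar1, Npm2 and Tle6 lie above the line and Dazl, Bmp15 and Lhx8 below it.

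The same gene could stand at very different levels in the WT ovaries of the 2 cohorts. Zar1, which holds maternal RNAs in storage, was at 2.76 ± 0.702 CPM in young and 15.1 ± 5.33 CPM in older WT ovaries, a ratio of 5.46. Npm2, a histone chaperone of the egg, was 4.11 times higher in the older libraries, Tle6 3.26 times, Zar1l 3.21 times, Mos 2.60 times and Khdc3 2.20 times. In the other direction, the RNA-binding protein gene Dazl was 4.42 times higher in young than in older libraries, Bmp15 3.61 times and Lhx8 2.50 times. The direction was mixed, with 20 genes higher and 14 lower in the older cohort and a median log2 ratio of 0.28. The plot of WT levels per kilobase shows how far these genes lie from the line of equality. Young ovary RNA was depleted of ribosomal RNA and sequenced with its strand kept, and older ovary RNA was selected by poly(A) tail without strand information, so age, breeding and library chemistry cannot be told apart in these ratios.

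No oocyte gene passed the test in any of the 6 ovary comparisons. The test was edgeR's quasi-likelihood F test over all genes kept by its expression filter, with Benjamini-Hochberg adjustment and a call at an adjusted p under 0.05. In young Zeb1_200M against WT, 0 of 32 oocyte genes tested were called, where 2.58% of 19250 genes were. In young Zeb1_200H against WT the count was also 0 of 32, with 0.0051% of 19621 genes called, and in young Zeb1_200M against Zeb1_200H it was 0 of 32, with 0.0% of 19259 genes called. Of the older cohort 33 oocyte genes were tested. None was called in Zeb1_200M against WT (2.71% of 17792 genes), in Zeb1_200H against WT (0.0% of 17605) or in Zeb1_200M against Zeb1_200H (1.61% of 17855). DESeq2's Wald test also called 0 oocyte genes in each of these 6 comparisons. Figla, in both cohorts, and Sohlh1, in the young cohort, had too few counts for the test. Comparisons against WT within a cohort share the same 4 WT libraries.

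Most oocyte genes nevertheless had higher values in the edited ovaries. Without an expression filter, the log2 ratio was above 0 for 32 of 34 genes in young Zeb1_200M against WT, for 31 in Zeb1_200H against WT and for 25 in Zeb1_200M against Zeb1_200H. Their medians were 0.35, 0.25 and 0.10, beside medians of 0.01, 0.01 and −0.01 over all genes tested. For older ovaries 34, 33 and 18 genes were above 0, with medians of 0.30, 0.34 and 0.01, beside 0.04, 0.02 and 0.01 over all genes tested. These counts are descriptions, since the 34 genes share their libraries and tend to move together.

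At an unadjusted p under 0.05, 16 oocyte genes had a higher value in young Zeb1_200M than in WT ovaries and 0 a lower one, where 7.70% of all genes tested were higher at that level. The count was 4 in young Zeb1_200H against WT (3.09% of all genes) and 0 in young Zeb1_200M against Zeb1_200H (3.36% in either direction). Among older ovaries it was 3 in Zeb1_200M against WT (9.55%), 2 in Zeb1_200H against WT (3.07%) and 2 in Zeb1_200M against Zeb1_200H (13.0% in either direction), 1 of them higher. The smallest adjusted p by edgeR among oocyte genes was 0.128 in young Zeb1_200M against WT, for Nlrp2, and 0.219 in the older cohort, for Cpeb1. The young result depended on settings. Without the expression filter 8 oocyte genes were called higher in Zeb1_200M (Bmp15, Btg4, Gdf9, Nlrp2, Oosp1, Padi6, Tcl1 and Zp3), where 0.52% of 51368 genes were called higher. Without Zeb1_200M replicate 2, the young Zeb1_200M library of lowest oocyte level, 14 were called higher, where 2.41% of 19574 genes were. Those 14 were the same 8 genes and Bcl2l10, Nlrp14, Nlrp4f, Nobox, Ooep and Zp1. With any other single library left out, no oocyte gene was called. Leaving out the lowest library of the higher group widens the difference by construction.

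**Figure D2:**
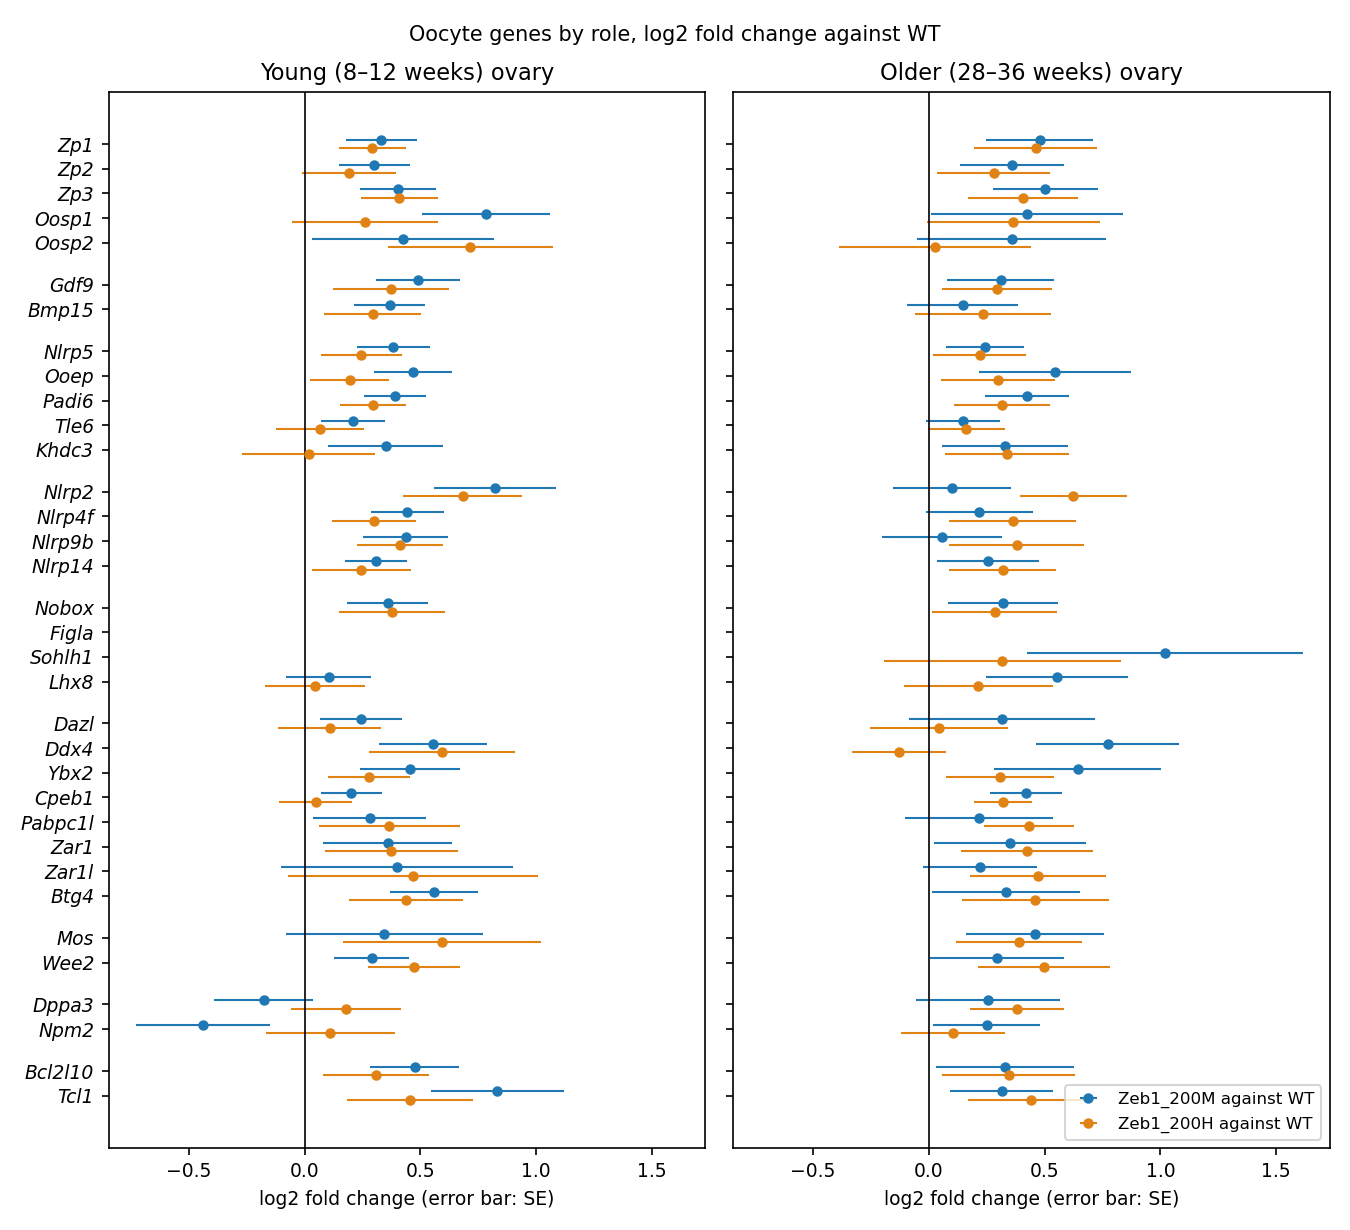
Log2 ratio (log2 fold change) to WT of each oocyte gene tested, by role, in young and older ovaries, for Zeb1_200H and Zeb1_200M, with SE as error bars. Nearly all points lie to the right of 0, and none of them passed the test at an adjusted p under 0.05.

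The summed level of the 34 genes showed how far single libraries differed. In young WT ovaries it was 488.7, 689.4, 676.1 and 509.9 CPM (591.0 ± 106.4, SD, n = 4). Young Zeb1_200H ovaries had 943.7, 670.6, 451.7 and 726.9 CPM (698.2 ± 202.1, 1.18 times the WT mean). Young Zeb1_200M ovaries had 745.7, 579.4, 797.0 and 898.4 CPM (755.1 ± 133.2, 1.28 times). The highest and the lowest of the 12 young libraries were both Zeb1_200H, and Zeb1_200M replicate 2 lay within the WT range. For Oosp1, Gdf9, Padi6, Nlrp4f, Nobox, Btg4 and Tcl1, described below, it was the only young Zeb1_200M library not above all WT libraries. Older WT ovaries had 643.5, 651.6, 821.3 and 457.3 CPM (643.4 ± 148.7). Older Zeb1_200H ovaries had 787.8, 993.2, 826.8 and 541.9 CPM (787.4 ± 186.4, 1.22 times). Older Zeb1_200M ovaries had 758.3, 1007, 704.0 and 757.6 CPM (806.7 ± 135.9, 1.25 times). Groups overlapped in both cohorts, and the distance between the highest and lowest WT library was larger than the distance between the group means.

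**Figure D3:**
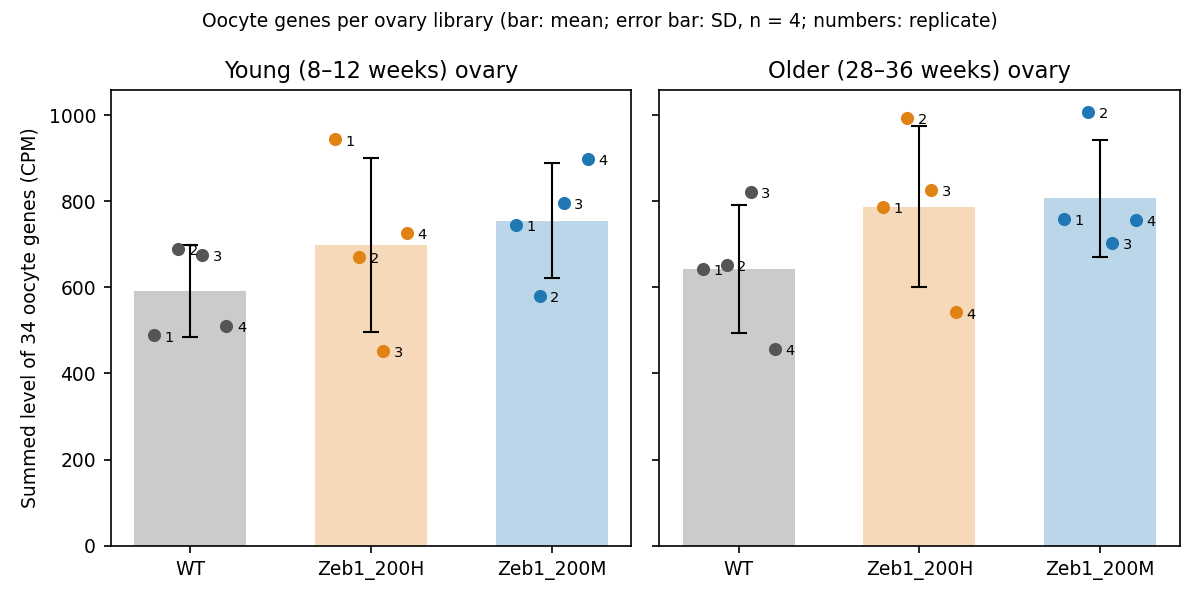
Summed level of 34 oocyte genes in CPM in each of 24 ovary libraries, by genotype and cohort, with bars for means and error bars for SD (n = 4). In the young cohort WT libraries sit between 488.7 and 689.4 CPM and Zeb1_200M libraries between 579.4 and 898.4 CPM, so the groups overlap.

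Libraries differed by a common factor across the oocyte genes. The median log2 deviation of the genes from the WT mean was −0.23, 0.25, 0.21 and −0.17 in the 4 young WT libraries. It was 0.64, 0.17, −0.27 and 0.35 in young Zeb1_200H and 0.40, −0.03, 0.43 and 0.62 in young Zeb1_200M. The older libraries had 0.09, 0.06, 0.38 and −0.54 in WT, 0.32, 0.78, 0.40 and −0.21 in Zeb1_200H, and 0.17, 0.74, 0.15 and 0.30 in Zeb1_200M. So WT replicate 4 of the older cohort was low for the whole set, and Zeb1_200H replicate 2 and Zeb1_200M replicate 2 were high. The median SD of an oocyte gene among the 12 young libraries, on the log2 scale, was 0.38. After each library was scaled to 36 further oocyte genes that are not among the 34, it was 0.18, and 30 of 32 genes had a smaller SD. Among older libraries it went from 0.41 to 0.24, with a smaller SD for 32 of 33 genes.

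With libraries scaled to those 36 further genes, the medians of the oocyte genes lay closer to 0. The median log2 ratio was 0.01 in young Zeb1_200M against WT and 0.02 in young Zeb1_200H against WT, while the median of all genes tested moved to −0.34 and −0.25. The older oocyte medians were 0.13 and 0.10, with −0.17 and −0.21 for all genes tested. This scale gives levels relative to other oocyte RNAs and not to the ovary. On it 0 oocyte genes were called by edgeR in each of the 6 comparisons. At an unadjusted p under 0.05 there were 2 values, Npm2 in young Zeb1_200M against WT, with a log2 ratio of −0.81 (SE 0.34, adjusted p = 0.233), and Ddx4 in older Zeb1_200M against Zeb1_200H, with 0.84 (SE 0.33, adjusted p = 0.573). The full list of 37 further oocyte genes, Kit included, was also counted on the ordinary scale. In young Zeb1_200M against WT 33 of 37 were above 0 with a median of 0.39 over the 35 tested, and in the older cohort 32 of 37 were above 0 with a median of 0.30 over the 34 tested. Kit was the only gene of that list to be called, with log2 ratios of 0.60 (SE 0.08, adjusted p = 0.00298) and 0.94 (SE 0.21, adjusted p = 0.0494). It encodes the receptor for KIT ligand on oocytes and is also expressed by other cells of the ovary.

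Of the egg coat genes, Zp2 had the highest CPM in WT libraries. It encodes a sperm-binding protein of the zona pellucida and lies at chr7:120126772-120145291 (GRCm38, minus strand). In young WT ovaries Zp2 was at 43.3, 61.5, 66.6 and 48.8 CPM, in Zeb1_200H at 85.4, 59.6, 34.7 and 64.1 and in Zeb1_200M at 61.9, 52.3, 69.5 and 83.8. Older libraries put Zp2 at 55.1, 51.6, 72.5 and 33.1 CPM in WT, 62.8, 78.8, 69.3 and 44.1 in Zeb1_200H and 68.4, 79.2, 56.7 and 66.3 in Zeb1_200M. Young Zeb1_200M replicates 3 and 4 lay above every WT library and the other two within the WT range, and in the older cohort only Zeb1_200M replicate 2 exceeded the highest WT library. The log2 ratio of Zeb1_200M against WT was 0.30 (SE 0.15, adjusted p = 0.36) for young and 0.36 (SE 0.23, adjusted p = 0.452) for older ovaries. Zp3, the coat's most abundant RNA per length, had 0.40 (SE 0.16, adjusted p = 0.24) and 0.50 (SE 0.22, adjusted p = 0.306). In young Zeb1_200H Zp3 had 0.41 (unadjusted p = 0.0291, adjusted p = 0.658). Zp1, which crosslinks coat filaments, had 0.33 (SE 0.15) and 0.48 (SE 0.23). Oosp1, an oocyte-secreted protein gene, was much lower in CPM. Oosp1 stood at 5.55, 7.21, 4.67 and 3.17 CPM in young WT ovaries, 8.5, 7.01, 2.69 and 5.6 in Zeb1_200H and 8.55, 5.18, 10.8 and 10.3 in Zeb1_200M. Older ovaries had 10.7, 7.37, 12.6 and 4.6 CPM of Oosp1 in WT, 11.2, 16.9, 11 and 5.89 in Zeb1_200H and 8.85, 21.3, 7.9 and 9.02 in Zeb1_200M. In the young cohort 3 of 4 Zeb1_200M libraries were above every WT library, with a log2 ratio of 0.78 (SE 0.28, adjusted p = 0.165). The older value was 0.42 (SE 0.41, adjusted p = 0.626), and without Zeb1_200M replicate 2 it was −0.047. Its neighbour Oosp2 had 0.42 (SE 0.39) and 0.36 (SE 0.41).

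The growth factors Gdf9 and Bmp15 act from the oocyte on granulosa cell growth. Bmp15 lies on the X chromosome (chrX:6314107-6320721) and Gdf9 on chromosome 11 (chr11:53431023-53437904). The young libraries had 76.2, 113, 101 and 73.1 CPM of Bmp15 in WT, 152, 103, 61.9 and 115 in Zeb1_200H and 110.0, 90.0, 120.0 and 141 in Zeb1_200M. Bmp15 stood at 26.4, 29.5, 29.4 and 15.2 CPM in older WT ovaries, 32.2, 41.4, 26.9 and 16.4 in Zeb1_200H and 26.9, 34.4, 21.3 and 27.8 in Zeb1_200M. Bmp15 was at 61.9 to 152 CPM over the 12 young libraries, with both ends in Zeb1_200H, and its log2 ratio in Zeb1_200M against WT was 0.37 (SE 0.15, adjusted p = 0.249). The older ratio was 0.15 (SE 0.24, adjusted p = 0.78), and −0.039 without WT replicate 4. Gdf9 measured 30.0, 47.8, 45.7 and 34.7 CPM in WT, 71.4, 49, 23.1 and 55.1 in Zeb1_200H and 52.2, 38.1, 59 and 69.9 in Zeb1_200M of the young cohort. The older values of Gdf9 were 59.6, 54.7, 80.5 and 39 CPM in WT, 79.7, 84.2, 72.2 and 47.5 in Zeb1_200H and 67.7, 92.4, 58.2 and 69.6 in Zeb1_200M. For Gdf9 3 of 4 young Zeb1_200M libraries exceeded all WT libraries, and the log2 ratio was 0.49 (SE 0.18, adjusted p = 0.187). The older cohort had 0.31 (SE 0.23, adjusted p = 0.52), with 1 Zeb1_200M library above the highest WT library.

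The subcortical maternal complex lies under the membrane of the egg and is needed for the first cleavages, and Padi6 was its most abundant RNA (chr4:140727355-140742643). In young WT ovaries Padi6 was at 49.1, 67.4, 62.9 and 46.9 CPM, in Zeb1_200H at 83.5, 71.2, 49.6 and 64.7 and in Zeb1_200M at 75.9, 58.3, 77.6 and 80.9. Older libraries put Padi6 at 76.6, 85.7, 108 and 56.3 CPM in WT, 97.6, 117, 114 and 73 in Zeb1_200H and 109, 116, 108 and 104 in Zeb1_200M. For Padi6, 3 of 4 young Zeb1_200M libraries lay above all WT libraries. Its log2 ratio was 0.39 (SE 0.13, adjusted p = 0.152) in young and 0.43 (SE 0.18, adjusted p = 0.283) in older Zeb1_200M, and 0.29 (SE 0.14) and 0.32 (SE 0.21) in Zeb1_200H. Ooep stood at 8.47, 11.1, 13.9 and 11.1 CPM in young WT ovaries, 15.8, 12.2, 9.54 and 12 in Zeb1_200H and 16.9, 11.9, 17.1 and 15.6 in Zeb1_200M. Older ovaries had 20.1, 16.5, 23.3 and 13.1 CPM of Ooep in WT, 22.6, 29, 23.5 and 13.8 in Zeb1_200H and 19.7, 46.6, 21.4 and 18.5 in Zeb1_200M. Ooep in older Zeb1_200M replicate 2 was higher than in any other older library, and the other 3 Zeb1_200M libraries lay inside the WT range. The log2 ratio of Ooep was 0.47 (SE 0.17, adjusted p = 0.173) in young and 0.55 (SE 0.33, adjusted p = 0.434) in older Zeb1_200M. Nlrp5, Tle6 and Khdc3 had 0.38, 0.21 and 0.35 for young and 0.24, 0.15 and 0.33 in the older cohort. The 5 members thus ranged from 0.21 to 0.47 and from 0.15 to 0.55, and none passed the test. Exons of Khdc3 overlap those of the annotated gene Gm20509 on the same strand, so its counts are less certain.

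**Figure D4:**
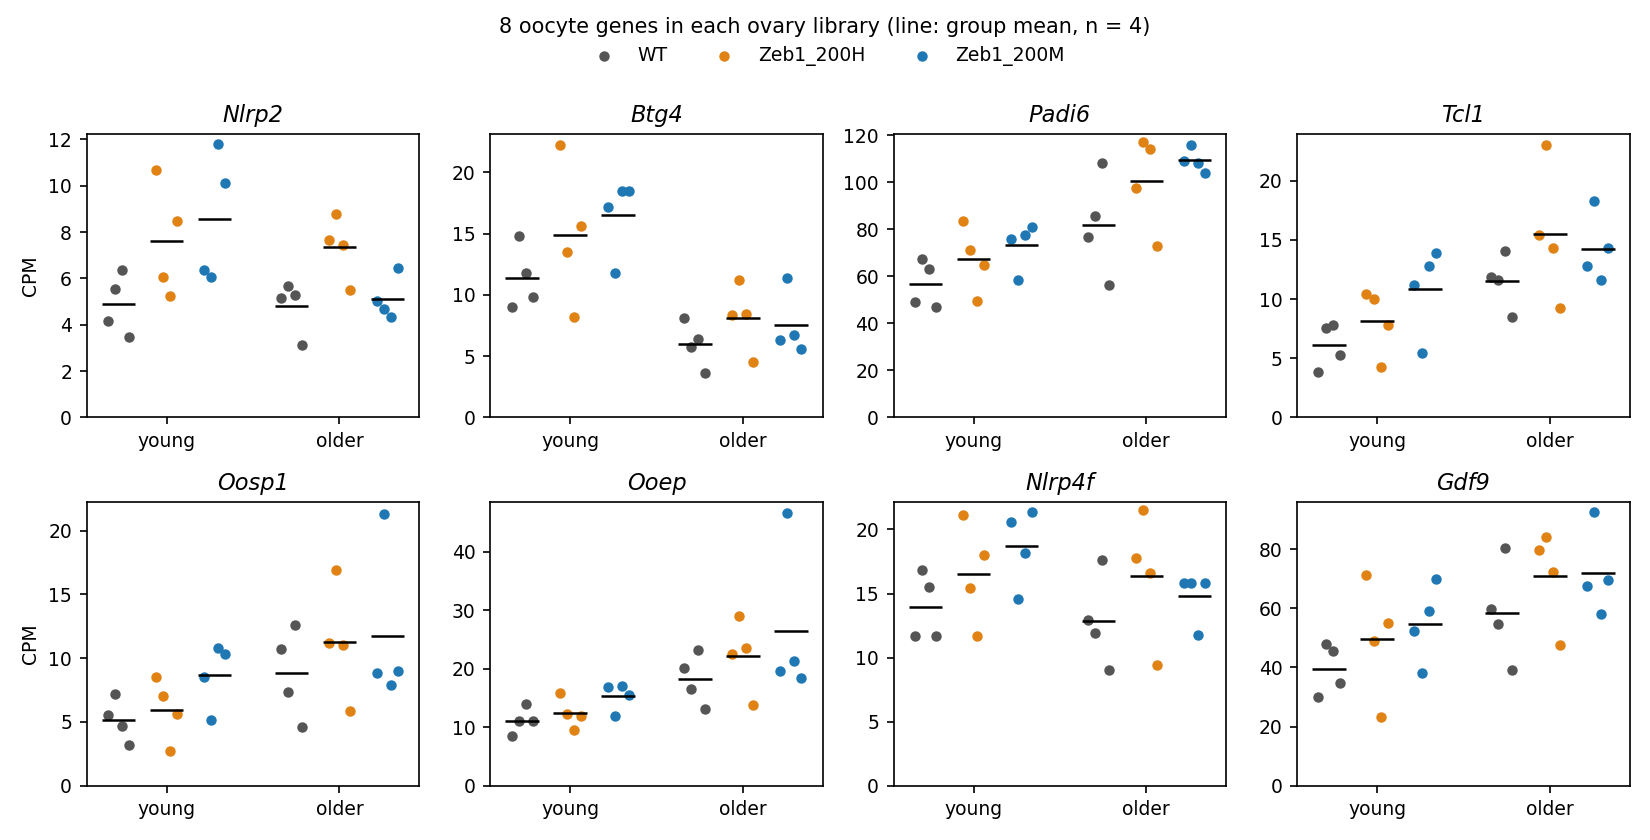
Level in CPM of 8 oocyte genes in each ovary library, coloured by genotype, with a line at each group mean (n = 4), for the young and the older cohort. Young Zeb1_200M points lie mostly above WT points for Tcl1, Oosp1 and Btg4, yet 1 of 4, replicate 2 each time, falls within the WT range. The 8 genes were chosen for the smallest p in Zeb1_200M against WT, so their distance from WT is partly a result of the choice.

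Of the other NLRP genes, Nlrp2 had the smallest p of all oocyte genes and Nlrp14 the highest WT level. These genes belong to a family of close paralogs, which the counting could split, and exons of Nlrp9b overlap Gm18877 on the same strand. The young libraries had 4.18, 5.56, 6.37 and 3.47 CPM of Nlrp2 in WT, 10.7, 6.07, 5.24 and 8.47 in Zeb1_200H and 6.35, 6.08, 11.8 and 10.1 in Zeb1_200M. Nlrp2 stood at 5.17, 5.69, 5.29 and 3.12 CPM in older WT ovaries, 7.65, 8.78, 7.45 and 5.49 in Zeb1_200H and 5.02, 4.67, 4.32 and 6.45 in Zeb1_200M. In the young cohort 2 Zeb1_200H and 2 Zeb1_200M libraries exceeded every WT library, and the log2 ratios were 0.68 (SE 0.26, adjusted p = 0.594) and 0.82 (SE 0.26, adjusted p = 0.128). The latter is a ratio of 1.77. Older Zeb1_200H had 0.62 (SE 0.23, unadjusted p = 0.0251, adjusted p = 0.748), but Zeb1_200M had 0.10 (SE 0.25, adjusted p = 0.866), and Zeb1_200M against Zeb1_200H had −0.53 (SE 0.23, unadjusted p = 0.0432, adjusted p = 0.362). The older Zeb1_200M value was −0.069 without WT replicate 4 and −0.037 without Zeb1_200M replicate 4. Nlrp14 measured 43.8, 57.7, 58.9 and 43.6 CPM in WT, 89.2, 54, 32.8 and 58.9 in Zeb1_200H and 61, 49.4, 65.1 and 74 in Zeb1_200M of the young cohort. The older values of Nlrp14 were 69, 67.1, 84.9 and 42.9 CPM in WT, 80.3, 109, 77.7 and 58.3 in Zeb1_200H and 83.3, 84.3, 57.5 and 87.3 in Zeb1_200M. Nlrp14 had a log2 ratio of 0.31 (SE 0.13, adjusted p = 0.276) in young and 0.25 (SE 0.22, adjusted p = 0.583) in older Zeb1_200M. In young WT ovaries Nlrp4f was at 11.7, 16.8, 15.5 and 11.7 CPM, in Zeb1_200H at 21.1, 15.4, 11.7 and 18 and in Zeb1_200M at 20.6, 14.6, 18.2 and 21.4. Older libraries put Nlrp4f at 12.9, 11.9, 17.6 and 9.03 CPM in WT, 17.8, 21.5, 16.6 and 9.44 in Zeb1_200H and 15.8, 15.8, 11.8 and 15.8 in Zeb1_200M. For Nlrp4f the young value was 0.44 (SE 0.16, adjusted p = 0.174), with 3 of 4 Zeb1_200M libraries above WT. The older value was 0.22 (SE 0.23, adjusted p = 0.654), and no older Zeb1_200M library exceeded the WT range. Nlrp9b had 0.44 and 0.06.

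Among the transcription regulators of the oocyte only Nobox and Lhx8 could be tested in both cohorts. Nobox stood at 12.2, 17.1, 18.9 and 14.6 CPM in young WT ovaries, 27.9, 15.2, 12.2 and 23.4 in Zeb1_200H and 21.5, 13.8, 20.1 and 24.3 in Zeb1_200M. Older ovaries had 8.76, 9.53, 10.4 and 5.25 CPM of Nobox in WT, 9.4, 14.2, 10.5 and 6.89 in Zeb1_200H and 9.94, 12, 9.56 and 10.7 in Zeb1_200M. Nobox, at chr6:43303674-43309554, had a log2 ratio of 0.36 (SE 0.18, adjusted p = 0.34) in young Zeb1_200M, where 3 of 4 libraries lay above WT, and 0.32 (SE 0.24, adjusted p = 0.519) in older Zeb1_200M. Lhx8 had 0.10 (SE 0.18) and 0.55 (SE 0.31). The young libraries had 0.209, 0.632, 0.0849 and 1.02 CPM of Sohlh1 in WT, 0.85, 1.15, 0.269 and 1.17 in Zeb1_200H and 0.733, 0.299, 0.57 and 0.46 in Zeb1_200M. Sohlh1 was thus at 1.17 CPM or less in every young library and was not tested there. Sohlh1 stood at 0.263, 1.12, 0.456 and 1.4 CPM in older WT ovaries, 0.83, 1.7, 0.957 and 0.602 in Zeb1_200H and 0.655, 3.36, 1.25 and 1.44 in Zeb1_200M. Its older log2 ratio was 1.02 (SE 0.60, adjusted p = 0.421), and its highest library was Zeb1_200M replicate 2. Figla was at 0.105 to 0.632 CPM in young WT and 0.398 to 1.14 CPM in young Zeb1_200M ovaries, too low for a test.

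Of the RNA-binding group, Cpeb1 had the highest CPM in WT. It binds a short element in stored messages and sets when they are translated (chr7:81347026-81455465). Cpeb1 measured 16.7, 23.5, 25.1 and 18.6 CPM in WT, 26.6, 19, 16.9 and 21.4 in Zeb1_200H and 22.6, 23, 22.8 and 27 in Zeb1_200M of the young cohort. The older values of Cpeb1 were 25, 25.5, 23.8 and 20.7 CPM in WT, 24.6, 34.3, 27 and 30.9 in Zeb1_200H and 39.2, 25.6, 30.7 and 30.4 in Zeb1_200M. Cpeb1 was the only oocyte gene whose groups did not overlap in an ovary comparison, that of older Zeb1_200M against WT. The margin was narrow, as the highest WT library was at 25.5 and the lowest Zeb1_200M library at 25.6 CPM. Of genes at 1 CPM or more on average, 6.10% were higher without overlap in that comparison. No oocyte gene was higher without overlap in older Zeb1_200H against WT (1.19% of genes), in young Zeb1_200M against WT (3.18%) or in young Zeb1_200H against WT (0.884%). The log2 ratio of Cpeb1 was 0.42 (SE 0.16, unadjusted p = 0.0249, adjusted p = 0.219) in older Zeb1_200M, 0.32 (SE 0.13, adjusted p = 0.748) in older Zeb1_200H and 0.20 (SE 0.13, adjusted p = 0.506) in young Zeb1_200M. It is also expressed in pituitary and hypothalamus, so in ovary it need not come from oocytes alone.

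In young WT ovaries Btg4 was at 9, 14.8, 11.8 and 9.81 CPM, in Zeb1_200H at 22.2, 13.5, 8.19 and 15.6 and in Zeb1_200M at 17.2, 11.8, 18.5 and 18.5. Older libraries put Btg4 at 8.14, 5.77, 6.39 and 3.61 CPM in WT, 8.39, 11.2, 8.41 and 4.55 in Zeb1_200H and 6.33, 11.4, 6.74 and 5.61 in Zeb1_200M. Btg4, an adaptor for removal of poly(A) tails during meiotic maturation, had the second smallest p in the young cohort. Its log2 ratio was 0.56 (SE 0.19, adjusted p = 0.152) in young Zeb1_200M, with 3 of 4 libraries above WT, and 0.33 (SE 0.32, adjusted p = 0.619) in older Zeb1_200M. Ddx4 stood at 4.5, 3.04, 2.46 and 3.99 CPM in young WT ovaries, 7.53, 3.03, 3.9 and 5.99 in Zeb1_200H and 4.89, 5.38, 5.56 and 4.48 in Zeb1_200M. Older ovaries had 3.59, 2.56, 3.19 and 2.54 CPM of Ddx4 in WT, 2.67, 2.17, 2.73 and 3.08 in Zeb1_200H and 5.24, 7.43, 2.91 and 4.63 in Zeb1_200M. Ddx4, the germ cell RNA helicase, was named after its values were seen. It was the oocyte gene in which older Zeb1_200M differed most from Zeb1_200H, with a log2 ratio of 0.90 (SE 0.30, unadjusted p = 0.0154, adjusted p = 0.221). Against WT it had 0.77 (SE 0.31, adjusted p = 0.255) in older Zeb1_200M, −0.13 (SE 0.20) in older Zeb1_200H and 0.55 (SE 0.23, adjusted p = 0.253) in young Zeb1_200M. Zeb1_200M replicate 3 lay among the WT libraries. Dazl, Ybx2, Pabpc1l, Zar1 and Zar1l had 0.24 to 0.46 in young and 0.22 to 0.64 in older Zeb1_200M, and their adjusted p was 0.318 or higher for young and 0.406 or higher in the older cohort.

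The chromatin genes Dppa3 and Npm2 were the exceptions of the young cohort. Dppa3 protects the maternal genome from loss of methylation, and Npm2 encodes a histone chaperone of the egg. The young libraries had 3.66, 4.68, 2.89 and 2.45 CPM of Npm2 in WT, 4.25, 2.83, 3.22 and 3.91 in Zeb1_200H and 2.2, 1.89, 2.85 and 2.99 in Zeb1_200M. Npm2 stood at 12.5, 13, 19.1 and 11.7 CPM in older WT ovaries, 15, 16.2, 18.5 and 9.91 in Zeb1_200H and 13.5, 22.8, 15.1 and 15.1 in Zeb1_200M. Young Zeb1_200M replicates 1 and 2 were below every WT library, and the log2 ratio was −0.44 (SE 0.29, adjusted p = 0.516). It was 0.25 (SE 0.23, adjusted p = 0.608) for older ovaries. Dppa3 measured 3.98, 5.31, 3.99 and 5.01 CPM in WT, 6.32, 4.71, 3.22 and 5.73 in Zeb1_200H and 4.15, 3.39, 3.56 and 4.83 in Zeb1_200M of the young cohort. The older values of Dppa3 were 6.66, 6.81, 5.84 and 4.35 CPM in WT, 7.83, 9.16, 7.59 and 5.89 in Zeb1_200H and 6.66, 11.3, 5.57 and 4.63 in Zeb1_200M. For Dppa3 the young value was −0.18 (SE 0.21, adjusted p = 0.758). The older value was 0.26 (SE 0.31, adjusted p = 0.697), and −0.084 without Zeb1_200M replicate 2. These were the 2 of 34 genes below 0 in young Zeb1_200M against WT.

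Wee2 holds the oocyte in meiotic arrest, and Mos keeps the mature egg in metaphase. In young WT ovaries Wee2 was at 7.01, 9.86, 8.66 and 7.36 CPM, in Zeb1_200H at 14.7, 8.37, 9 and 12 and in Zeb1_200M at 10.1, 8.37, 11.1 and 10.1. Older libraries put Wee2 at 5.34, 6.57, 6.11 and 2.87 CPM in WT, 6.91, 9.82, 7.11 and 5.36 in Zeb1_200H and 4.91, 7.55, 5.99 and 7.05 in Zeb1_200M. Wee2 was 1 of the 4 genes with an unadjusted p under 0.05 in young Zeb1_200H, with 0.47 (SE 0.20, adjusted p = 0.677), and the others were Zp3, Nlrp2 and Nlrp9b. In Zeb1_200M it had 0.29 (SE 0.16, adjusted p = 0.425) for young and 0.29 (SE 0.29, adjusted p = 0.626) for older ovaries. Mos had 0.34 (SE 0.43) and 0.46 (SE 0.30). Tcl1, a coactivator of AKT kinase, had the largest young log2 ratio among the tested genes. Tcl1 stood at 3.87, 7.59, 7.81 and 5.31 CPM in young WT ovaries, 10.4, 10.0, 4.3 and 7.82 in Zeb1_200H and 11.2, 5.48, 12.8 and 13.9 in Zeb1_200M. Older ovaries had 11.9, 11.6, 14.1 and 8.46 CPM of Tcl1 in WT, 15.4, 23, 14.3 and 9.24 in Zeb1_200H and 12.8, 18.3, 11.6 and 14.3 in Zeb1_200M. Its value was 0.83 (SE 0.29, adjusted p = 0.156) in young Zeb1_200M, with 3 of 4 libraries above WT, and 0.31 (SE 0.22, adjusted p = 0.501) for older ovaries. The young libraries had 6.91, 9.61, 10.6 and 8.89 CPM of Bcl2l10 in WT, 16.6, 9.42, 6.72 and 10.6 in Zeb1_200H and 14, 8.27, 13.2 and 14.1 in Zeb1_200M. Bcl2l10 stood at 17.7, 17.9, 19.9 and 11.2 CPM in older WT ovaries, 18.2, 33.3, 19.3 and 13.1 in Zeb1_200H and 16.5, 34, 15.7 and 17 in Zeb1_200M. Bcl2l10, of the BCL2 family, had 0.48 (SE 0.19, adjusted p = 0.236) in young Zeb1_200M. The older value was 0.33 (SE 0.30, adjusted p = 0.602), and −0.033 without Zeb1_200M replicate 2.

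Older Zeb1_200M replicate 2 was the highest of the 12 older ovary libraries for 21 of 34 oocyte genes, and it did not raise them evenly. Its ratio to the mean of the other 3 Zeb1_200M libraries had a median of 1.48. It was 2 or more for 9 genes, led by Sohlh1 at 3.01, Oosp1 at 2.48, Ybx2 at 2.41, Dazl at 2.39 and Ooep at 2.35. It was below 1 for Nlrp5 at 0.996, Nlrp2 at 0.888 and Cpeb1 at 0.767, and Padi6 was near it at 1.08. The SD of the genes around the library's median deviation was 0.42 on the log2 scale, and 0.17 to 0.33 in the other 23 ovary libraries. Across genes, the log2 ratio of this library had a Spearman rho with exon length of −0.58 over 33 oocyte genes and −0.23 over 17645 genes. The other older Zeb1_200M libraries had 0.51, 0.05 and 0.53 over oocyte genes and 0.19, −0.05 and 0.26 over all genes. These genes share a library and are not independent, and the part of length in the result was not tested. Without this library 3 of the genes described above, Oosp1, Dppa3 and Bcl2l10, changed sign in older Zeb1_200M against WT, and so did Dazl, Tle6, Pabpc1l and Nlrp9b. Without it the count of called oocyte genes stayed at 0.

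**Figure D5:**
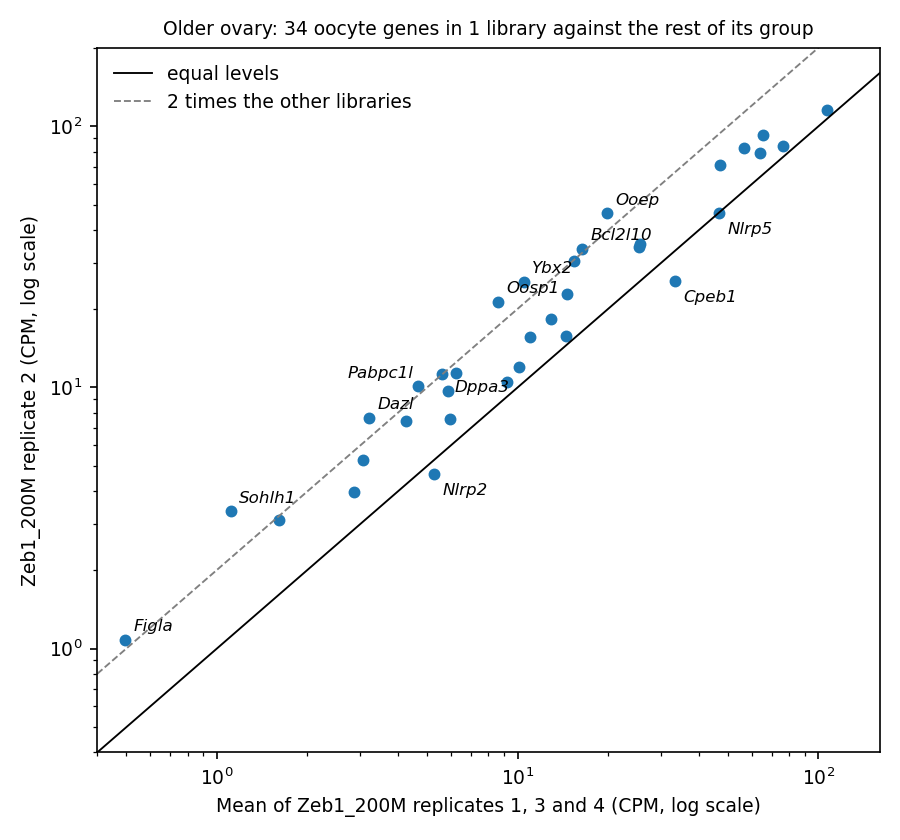
Level of each oocyte gene in older Zeb1_200M replicate 2 (vertical) against the mean of Zeb1_200M replicates 1, 3 and 4 (horizontal), in CPM on log scales. Genes such as Ooep and Oosp1 lie at a ratio of 2 or more, and Cpeb1 and Nlrp2 lie below the line of equality.

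Marker genes of other ovarian cell types also had summed levels above or below WT, and these stand beside the oocyte genes because CPM are shares of a library. In the young cohort the summed level of 6 luteal genes in Zeb1_200M was 0.843 times that in WT (4792 to 8162 against 6691 to 9297 CPM), and in Zeb1_200H it was 0.774 times. All 6 were below 0 in both comparisons. Of them Akr1c18, which degrades progesterone, fell with a log2 ratio of −3.49 (SE 0.65, adjusted p = 0.0152) in young Zeb1_200M, and Prlr and Scarb1 fell with −0.70 (SE 0.14, adjusted p = 0.0213) and −0.45 (SE 0.10, adjusted p = 0.0335). The 7 theca and stroma genes summed to 0.841 and 0.800 times WT in young Zeb1_200M and Zeb1_200H. Their median log2 ratios, however, were −0.02 and 0.03. The 10 granulosa genes summed to 1.13 and 0.986 times WT. Nr5a2, a regulator in granulosa cells, rose by 0.39 (SE 0.10, adjusted p = 0.0473), and Lrrn4, of the ovarian surface, fell with −0.77 (SE 0.15, adjusted p = 0.0178). The 8 genes of surface and oviduct epithelium summed to 0.93 and 0.893 times WT in young Zeb1_200M and Zeb1_200H. Their sum was 62.33 CPM in Zeb1_200H replicate 1 and 79.65 CPM in Zeb1_200M replicate 4, and 292.4 to 693.1 CPM in the other young libraries. Those replicates had the highest young oocyte sums, 943.7 and 898.4 CPM.

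Among older ovaries the luteal sum in Zeb1_200M was 0.573 times that in WT. Akr1c18 was at 2.04 to 6.33 CPM in Zeb1_200M and 405.0 to 4820 CPM in WT, a log2 ratio of −8.80 (SE 0.99, adjusted p = 0.00482), and Ptgfr, the receptor that ends luteal life, had −7.37 (SE 0.60, adjusted p = 0.00152). The 4 macrophage genes summed to 926.1 to 3646 CPM in Zeb1_200M and 216.6 to 518.3 CPM in WT, 5.55 times, and Lyz2 rose by 2.88 (SE 0.57, adjusted p = 0.0351). The theca gene Insl3 rose by 1.60 (SE 0.23, adjusted p = 0.012), while the summed theca and stroma list stood at 0.93 times WT with 4 of 7 genes above 0 in their log2 ratio. Granulosa genes stood at 0.762 times WT, fat genes at 2.24 times and epithelial genes at 3.08 times, with wide ranges. The last 2 ratios rested on Zeb1_200M replicate 3, with 552.8 CPM of fat and 3992 CPM of epithelial genes. The other Zeb1_200M libraries had 68.85 to 90.97 CPM of fat genes, within the WT range of 42.16 to 129.2 CPM. They had 83.42 to 580.8 CPM of epithelial genes, beside 135.7 to 1087 CPM in WT. The value of 83.42 CPM was that of Zeb1_200M replicate 2, the older library of highest oocyte sum. Zeb1_200H replicate 2, next in oocyte sum, had 444.1 CPM of epithelial genes. Endothelial genes stood at 1.05 times WT in young and 0.806 times in older Zeb1_200M. In Zeb1_200H the older luteal sum was 1.04 times WT, while the summed oocyte level was 1.22 times. The part of these cell types in the oocyte values was not tested.

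Whether the Zeb1_200M effect differed between cohorts was tested as an interaction over the 16 WT and Zeb1_200M ovary libraries. Of 33 oocyte genes tested by edgeR 0 were called, where 0.197% of 21786 genes were, DESeq2 also called 0, and 0 had an unadjusted p under 0.05, where 12.0% of genes did. The median difference, older minus young, was −0.04 on the log2 scale over the oocyte genes and 0.01 over all genes. Nlrp2 had the smallest adjusted p, with a difference of −0.75 (adjusted p = 0.466), followed by Npm2 with 0.67 (adjusted p = 0.468). On simulated counts, the pairwise test of young Zeb1_200M against WT recovered 82.0% of genes changed by 1 on the log2 scale. It recovered 98.0% of those changed by 2, and in the older cohort 44.0% and 93.0%. The interaction test recovered 98.5% of genes changed by 2. In the pairwise test 100 genes were changed per fold, all above a minimum mean count, and genes were drawn independently. The oocyte genes tend to move together and some have low counts, so these shares need not hold for them. The oocyte values in Zeb1_200M, mostly under 0.6, were smaller than the changes so simulated.

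In pituitary and hypothalamus most of the oocyte genes were near or at 0. The 34 genes together took 446 to 742 counts in a young pituitary library and 187 to 357 in a young hypothalamus library. A mean of 1 CPM or more was reached by 6 genes in young pituitary (Tle6, Khdc3, Ddx4, Ybx2, Cpeb1 and Pabpc1l) and 4 in young hypothalamus (Ooep, Ddx4, Ybx2 and Cpeb1). Among older libraries it was reached by 3 in pituitary (Tle6, Cpeb1 and Pabpc1l) and 8 in hypothalamus (Gdf9, Ooep, Tle6, Lhx8, Ddx4, Ybx2, Cpeb1 and Zar1). Genes under 0.1 CPM numbered 10 in young pituitary and 18 in each of the other 3. Nothing was called in young pituitary (6 oocyte genes tested, 21.5% of all genes called in Zeb1_200M and 12.3% in Zeb1_200H against WT). Nor was any called in young hypothalamus (1 tested, 0.02% and 0.0202%) or older hypothalamus (9 tested, 0.00622% and 0.0%), nor in older Zeb1_200M pituitary (3 tested, 21.4%). At an unadjusted p under 0.05 there was 1 gene in young Zeb1_200M pituitary, Pabpc1l, and 1 in each older hypothalamus comparison, Lhx8, and DESeq2 also called 0 in all 7 of these comparisons.

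Pabpc1l, a poly(A)-binding protein of oocytes, was the only oocyte gene called in any tissue. In older pituitary it was at 2.76, 3.59, 4.6 and 3.28 CPM in WT, 2.09, 2.03, 1.39 and 1.59 CPM in Zeb1_200H, and 1.46, 2.71 and 2.66 CPM in Zeb1_200M. It fell in Zeb1_200H, with a log2 ratio of −0.95 (SE 0.24, adjusted p = 0.0238). In that comparison 1 of 3 oocyte genes tested was called, where 12.2% of all genes were called and 5.14% were called lower. In older Zeb1_200M pituitary Pabpc1l had −0.57 (adjusted p = 0.179). In young Zeb1_200M pituitary it had −0.91 (SE 0.34, adjusted p = 0.0747), and it was called there only without Zeb1_200M replicate 1, where 9.06% of genes were called lower. The older call was lost without WT replicate 2, WT replicate 3, Zeb1_200H replicate 3 or Zeb1_200H replicate 4, each with an edgeR count of 0.

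Lhx8 is also a regulator of forebrain neurons, and in older hypothalamus it varied widely. It was at 2.33, 4.45, 1.81 and 0.785 CPM in WT, 5.28, 7.19, 2.68 and 16 CPM in Zeb1_200H, and 5.15, 1.90 and 10.2 CPM in Zeb1_200M. The log2 ratios were 1.74 (SE 0.52, unadjusted p = 0.00539, adjusted p = 1) and 1.33 (SE 0.52, unadjusted p = 0.0257, adjusted p = 0.221). Groups overlapped in both comparisons. Only without the expression filter was Lhx8 called, where 0.257% of genes in Zeb1_200H and 1.35% in Zeb1_200M were called higher. By edgeR without the filter its adjusted p was 2.6e-13 in Zeb1_200H and 1.73e-05 in Zeb1_200M, on the same overlapping counts. Why the filter changed it so far was not tested, so calls without the filter are to be read with caution. Cpeb1, known also in neurons, was at 72.3 to 86.1 CPM in older hypothalamus, above its level in every ovary library.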

How the data were processed

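The authors deposited 18 tables, each for 2 genotypes of a tissue and cohort, with raw read counts per gene and library, and the log2 fold changes, p-values and adjusted p-values of their own DESeq2 tests (1.18 and 1.38.3 in the submitters' notes), which were not used. Per the methods and the submitters' notes, the authors aligned reads with STAR 2.7.1a to mm10 (GRCm38). They counted older pituitary and hypothalamus with HTSeq 0.9.1 on Ensembl genes, unstranded, and all other libraries with featureCounts on GENCODE genes, unstranded in older ovary and on the reverse strand in the young cohort. Of 69 libraries, 66 occur in more than 1 table, with 0 genes differing, and 3 WT count columns of a young pituitary table, with repeated names, were left out. Of the 3 young WT pituitary libraries used, 1 has a number that no sample title holds, so it was used by its group only. Among 99 pairs of libraries within groups the lowest chi-square per degree of freedom was 1.89, so none was a copy. Symbols named 99.54% of IDs.

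Each pair of genotypes was tested by itself within tissue and cohort with edgeR 4.0.16 (R 4.3.3, limma 3.58.1) on the deposited counts, with TMM scaling, filterByExpr, the quasi-likelihood F test and Benjamini-Hochberg adjustment over all genes tested. SE is the log2 ratio divided by the root of its F statistic. Alternatives were DESeq2 1.42.0, other scalings, no filter, all 3 genotypes in 1 fit, the replicate number as a block, each library left out, and libraries scaled to 36 further oocyte genes, the last chosen after seeing the data. The test was checked on simulated counts. Coordinates and exon lengths are those of GENCODE M21 on GRCm38, an earlier release than the GENCODE annotation the authors named for featureCounts, so exon lengths may differ. Values in every library are given for the 8 oocyte genes of smallest unadjusted p in Zeb1_200M against WT in either cohort and for the gene of highest WT level in each role. Ddx4, Sohlh1, Pabpc1l and Lhx8 were added after their values were seen. The members and all gene lists were chosen with earlier results of these data known, so no list was tested as a whole. No cells were sorted, so each value is the sum over the whole tissue. Counting error is only part of the spread, which the number of libraries limits.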

Additional observations from a re-analysis of the deposited data

Results flagged for a closer look

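Single libraries that stood far from the other 3 of their group were sought among the 17 oocyte genes chosen by rule and in the summed level of the 34, over 108 groups of 4. A library was listed where its gap to the nearest other library was, as a share of the group's range, above Dixon's critical value, which chance alone gives in about 1 in 20 groups. There were 7 such values (6.48% of groups), and all 7 were Zeb1_200M libraries. The groups share libraries and are not independent, and 8 of the 17 genes were chosen by their p in Zeb1_200M against WT. The share and the genotype of these values are thus descriptions only. In young ovary Cpeb1 was at 27.0 CPM in replicate 4, with the others at 22.6 to 23.0 CPM. Bcl2l10 was at 8.27 CPM in young replicate 2, with the others at 13.2 to 14.1 CPM. In older replicate 2, Oosp1 was at 21.3 CPM (others 7.90 to 9.02), Ooep at 46.6 CPM (others 18.5 to 21.4) and Bcl2l10 at 34 CPM (others 15.7 to 17). In older replicate 3, Nlrp4f was at 11.8 CPM (others 15.8) and Nlrp14 at 57.5 CPM (others 83.3 to 87.3). What set these libraries apart was not tested.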

How the results depend on the processing

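Of the counts of calls and the medians, 131 values under other settings and 188 with 1 library left out stayed about the same. For a count that meant equal or within 1.5 times. For a median it meant a move below the SD of the reference group's library medians, 0.26 to 0.39 in ovary. A median could thus turn sign and still be counted as the same. With 1 library left out, the median in young Zeb1_200M against Zeb1_200H ranged from −0.0557 to 0.305. In the older cohort it ranged from −0.158 to 0.14. Of the rest, 15 and 5 rose from 0 or by over 1.5 times, 6 and 27 fell by as much, and 1 median moved under another setting. Among single genes 280 and 368 kept their direction and side of the threshold. Another 8 and 14 gained a call, 1 and 4 lost one, and 6 turned sign with 1 library left out. Called oocyte genes in young Zeb1_200M against WT were 0, but 8 without a filter and 0 to 14 with 1 library left out, 14 without Zeb1_200M replicate 2. Without a filter Lhx8 was called in older hypothalamus, 1 in Zeb1_200M and 1 in Zeb1_200H. The count in young Zeb1_200M pituitary ranged from 0 to 1 with 1 library left out, and in older Zeb1_200H pituitary from 0 to 1. The median in young Zeb1_200M against WT went from 0.35 to 0.0125 with libraries scaled to the further oocyte genes, which removes by construction what they share. Over all genes, young Zeb1_200M against WT gave 497 calls, 872 with DESeq2, 845 without a filter, 109 with all 3 genotypes in 1 fit and 112 to 1214 with 1 library left out. Young Zeb1_200H against WT gave 1, 92 with DESeq2, 3 with library totals, 241 without a filter and 0 to 9 with 1 left out. Young Zeb1_200M against Zeb1_200H gave 0, 9 with DESeq2 and 45 without a filter. In the older cohort, Zeb1_200M against WT gave 482, 1321 with DESeq2, 815 in 1 fit and 87 to 599 with 1 left out. Zeb1_200H against WT gave 0, 22 with DESeq2 and 1 without a filter, and Zeb1_200M against Zeb1_200H gave 288, 876 with DESeq2 and 77 to 357 with 1 left out. The cause of these shifts was not tested. Over all 33 oocyte genes tested in older Zeb1_200M against WT, 7 turned sign without Zeb1_200M replicate 2, 2 without Zeb1_200M replicate 4, 3 without WT replicate 4 and 0 without any of the others. Nlrp2 ranged from −0.0688 (without WT replicate 4) to 0.184 and was −0.0368 without Zeb1_200M replicate 4, and Bmp15 from −0.0391 (without WT replicate 4) to 0.252. Without Zeb1_200M replicate 2 were the lowest values of Oosp1 (−0.0474 to 0.647), Dppa3 (−0.0841 to 0.412) and Bcl2l10 (−0.0333 to 0.44).

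Correlations of the deviations of same-numbered libraries were −0.57 to 0.44 over ovary pairs, −0.56 to 0.24 over pituitary pairs and −0.24 to 0.42 over hypothalamus pairs, and exceeded 0.1 for all pairs in 0 of 6 comparisons in each tissue, so the numbers were not taken as pairing. With the replicate number as a block, calls over all genes were 150, 0 and 101 in young Zeb1_200M, young Zeb1_200H and older Zeb1_200M against WT and 77 in older Zeb1_200M against Zeb1_200H. Pabpc1l in older Zeb1_200H pituitary was then not called, with a count of 0.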
